A study of Pyrus hybrid rootstock with 24 samples.

Results

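The 5 genes described here, measured in pear graft unions, bear the names of 3 gene families of the auxin pathway. By these names they are the auxin uptake genes AUX1 Pbr033508.2 and Pbr029742.1, the auxin repressor gene AUX/IAA Pbr033492.1, and the auxin conjugation genes GH3 Pbr030688.1 and Pbr007550.1. They were taken, 5 of the 42812 genes in the files, because the study labelled these rows as AUX1, AUX/IAA, or GH3 in its panel of auxin genes. The study had selected them as differing between heterografts and homografts, so the difference between graft types was a description and was not tested. The change with healing stage, averaged over both graft types, was a separate measure and was tested. The files hold the IDs without gene names, and the family names rest on the study.

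In Arabidopsis, AUX1 proteins are carriers that move auxin from the cell wall space into the cell. AUX/IAA proteins repress the auxin response factors, and auxin leads to their degradation through the TIR1/AFB receptors. GH3 enzymes of the auxin class join auxin to amino acids, which lowers free auxin, and other GH3 enzymes act on other hormones, such as jasmonate. AUX/IAA and GH3 genes are often switched on by auxin itself. Auxin that moves down the stem from the scion is known to promote the joining of vascular strands across a graft.

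RNA-seq libraries were prepared from graft unions of plantlets micro-grafted in culture. In homografts, “Qingzhen D1” (Pyrus communis × P. bretschneideri) was both scion and rootstock, and in heterografts a QAUP-1 (P. ussuriensis) scion was placed on a “Qingzhen D1” rootstock. Unions were sampled at 1, 5, 9, and 30 DAG (days after grafting), which the study named separation of rootstock and scion (SS), callus formation (CF), cambium differentiation (CD), and vascular connection (VC). With S for homografts and D for heterografts, the 8 conditions were SSS, SCF, SCD, SVC, DSS, DCF, DCD, and DVC, with 3 libraries each and 24 in all. The scion genotype differs between the graft types together with the combination itself, and these cannot be told apart. All plantlets were grown on a medium with a cytokinin and the auxin IBA, which every group shared. Each library held RNA of the whole union, so scion and rootstock were not measured separately, and fewer cells of a type cannot be told apart from less RNA per cell. The study calls the 3 libraries of a condition biological replicates, the labels do not say how plantlets were divided among them, and the tests measure the spread between these libraries.

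Levels are FPKM, reads scaled for the length of the gene and the total reads of the library, so they can be compared between genes. The libraries held between 10374009 and 13630155 reads on genes. Correlations of each library with the other libraries of its condition averaged between 0.970 and 0.982, and the lowest value was that of DCD replicate 1. It was 1 of 7 libraries that were most like a library of another condition, and results that rest on it are also given without it. All 5 genes passed the filter on low values (FPKM of 1 or more in 3 or more libraries), as did 26895 genes in all. AUX1 Pbr033508.2 had a mean of 14.9 FPKM over the 24 libraries, and 58.5% of the tested genes had a lower mean. The other 4 had means of 5.11 (Pbr030688.1), 3.41 (Pbr033492.1), 2.63 (Pbr007550.1), and 1.79 FPKM (Pbr029742.1). A median library held 232 reads of Pbr033508.2, 93.5 of Pbr030688.1, 26.5 of Pbr029742.1, 24.5 of Pbr033492.1, and 24.5 of Pbr007550.1. The last 3 therefore rest on few reads, down to 1 read of AUX/IAA in SVC replicate 3.

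**Figure D1:**
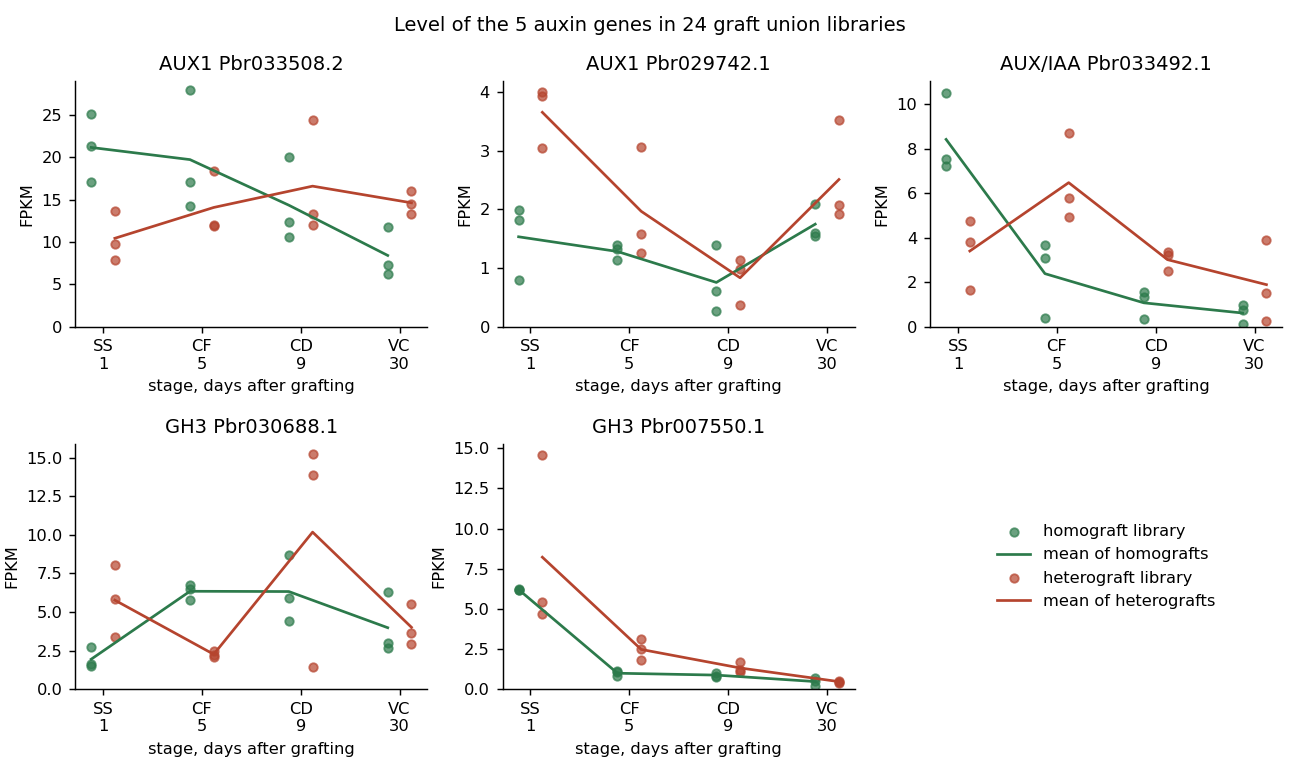
FPKM of the 5 auxin genes (y axis) at the 4 stages (x axis); each point is a library and lines join the means of 3 libraries of homografts and of heterografts. GH3 Pbr007550.1 fell from SS to VC in both graft types (0.232 to 0.685 FPKM at VC), whereas the DCD libraries of GH3 Pbr030688.1 lay between 1.43 and 15.2 FPKM.

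Among the uptake genes, AUX1 Pbr033508.2 was the more abundant. In homografts its FPKM was 17.1, 25.2, and 21.3 in SSS, 14.2, 27.9, and 17.0 in SCF, 10.6, 12.4, and 20.0 in SCD, and 6.17, 11.8, and 7.26 in SVC. The heterografts had 9.73, 7.93, and 13.7 in DSS, 18.3, 11.9, and 11.97 in DCF, 13.3, 12.05, and 24.5 in DCD, and 16.1, 13.3, and 14.5 FPKM in DVC. The 3 SVC libraries lay below the 3 SSS libraries, and the DVC libraries lay above 2 of the 3 DSS libraries and above the highest SVC library. How many of all tested genes were apart between stages within a graft type was not counted, so nothing is read from this. Between SS and VC the log2 change was −1.27 in homografts and 0.48 in heterografts. Averaged over both graft types, the change from SS to VC was −0.39 (SE 0.21) on the log2(FPKM + 1) scale and did not pass the test (limma, adjusted p = 0.117). Between CD and VC it was −0.41 (limma, adjusted p = 0.133), and over the 4 stages the F test gave an adjusted p of 0.131 in limma. The call from SS to VC depended on scaling and on 1 library. Upper-quartile scaling gave −0.51 (limma, adjusted p = 0.0490), and leaving out SVC replicate 2, the highest library of that condition, gave −0.52 (limma, adjusted p = 0.0456). In the order of the 8 condition means, from SSS to SVC, every pair of neighbours overlapped.

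AUX1 Pbr029742.1 was lowest at CD and higher again at VC in both graft types. Its FPKM was 0.792, 1.99, and 1.82 in SSS, 1.32, 1.39, and 1.13 in SCF, 0.610, 0.261, and 1.39 in SCD, and 1.55, 1.60, and 2.09 in SVC. In heterografts it was 3.04, 3.93, and 4.01 in DSS, 3.06, 1.58, and 1.26 in DCF, 0.990, 0.374, and 1.14 in DCD, and 3.54, 2.08, and 1.92 in DVC. All 6 VC libraries (1.55 to 3.54 FPKM) lay above all 6 CD libraries (0.261 to 1.39 FPKM), which was so in either direction for 16.4% of all tested genes. Averaged over both graft types, it rose from CD to VC by 0.81 (SE 0.19) on the log2(FPKM + 1) scale (limma, adjusted p = 0.00188). An exact permutation test, with stage labels permuted within graft type, gave a two-sided p of 0.005, the smallest it can give. The rise was 0.69 in homografts and 0.93 in heterografts. In the opposite direction, the average changes were −0.40 from SS to CF (limma, adjusted p = 0.106) and −0.55 from CF to CD (limma, adjusted p = 0.173). The former passed without SSS replicate 1 (−0.52, limma, adjusted p = 0.0418) and without DCF replicate 1 (−0.53, limma, adjusted p = 0.0365). Between SS and VC its change was −0.14 (limma, adjusted p = 0.543), with 0.15 in homografts and −0.43 in heterografts.

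Pbr033508.2 was the higher AUX1 gene in 24 of 24 libraries, by a ratio of FPKM between 2.02 (DSS replicate 2) and 47.5 (SCD replicate 2). Its share of the summed FPKM of the pair was 95.6%, 92.7%, and 92.1% in SSS and 76.2%, 66.9%, and 77.3% in DSS. At CD the share was between 93.1% and 97.9% in the 6 libraries, and at VC it was between 77.6% and 88.4%. The pair thus moved closer together between CD and VC. The log2 ratio of Pbr033508.2 to Pbr029742.1 (pseudocount 1) fell by 1.22 from CD to VC, averaged over both graft types (exact two-sided permutation test, p = 0.005, the smallest it can give), and by 1.88 with a pseudocount of 0.1. Most of the fall of 1.22 repeats the rise of Pbr029742.1 (0.81), since the change of Pbr033508.2 was −0.41 and did not pass (limma, adjusted p = 0.133). Before CD, the average change of the ratio was 0.54 from SS to CF (exact permutation test, p = 0.06), with −0.02 in homografts and 1.09 in heterografts. From CF to CD it was 0.43 (exact permutation test, p = 0.095), with 0.001 and 0.86. In heterografts the mean log2 ratio was 1.27 in DSS and 3.22 in DCD, and this difference was not tested within heterografts. The low ratio in DSS includes the difference between graft types, the contrast on which the genes were chosen. Over the whole interval from SS to VC the ratio differed by −0.25 (exact permutation test, p = 0.565), with −1.41 in homografts and 0.91 in heterografts. The ratios of AUX1 and GH3 were tested over 4 intervals each, 8 tests in all, and the 6 tests on intervals other than SS to VC were added after the levels had been seen.

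AUX/IAA Pbr033492.1, the repressor gene, fell between SS and VC. Its FPKM was 7.52, 10.5, and 7.21 in SSS, 3.69, 0.380, and 3.07 in SCF, 0.319, 1.31, and 1.58 in SCD, and 0.750, 0.956, and 0.122 in SVC. In heterografts it was 1.65, 4.73, and 3.81 in DSS, 4.95, 8.71, and 5.76 in DCF, 3.34, 2.48, and 3.21 in DCD, and 0.269, 1.49, and 3.90 in DVC. The homografts were highest at SS and the heterografts at CF, and the DCF libraries lay above all DSS libraries, whereas the SCF libraries lay below all SSS libraries. Nothing is read from these separations, since their share over all tested genes was not counted. Over the 6 libraries of a stage, the mean went from 5.91 ± 3.15 FPKM (SD) at SS and 4.43 ± 2.80 at CF to 2.04 ± 1.18 at CD and finally 1.25 ± 1.39 at VC. The average change from SS to VC was −1.66 (SE 0.32) on the log2(FPKM + 1) scale (limma, adjusted p = 2.07e-04). The exact permutation test gave p = 0.015 (two-sided), and the 6 SS and 6 VC libraries overlapped through DSS and DVC. Among the 26895 tested genes, 297 fell further from SS to VC. The fall was 2.57 in homografts and 0.75 in heterografts on the log2 scale, so the average describes neither graft type alone. None of the steps between consecutive stages passed the test (limma, adjusted p = 0.349, 0.293, and 0.222). In SS to CF the graft types moved in opposite directions, with −1.65 in homografts and 0.81 in heterografts, and their average was −0.42. The residual SD of Pbr033492.1 was 0.60 on the log2 scale, larger than that of 97.1% of the tested genes.

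Of the conjugation genes, GH3 Pbr007550.1 had the clearest change with stage. Its FPKM was 6.19, 6.27, and 6.16 in SSS, 0.805, 1.06, and 1.13 in SCF, 0.772, 1.04, and 0.833 in SCD, and 0.525, 0.685, and 0.232 in SVC. In heterografts it was 4.67, 14.6, and 5.43 in DSS, 2.49, 1.83, and 3.12 in DCF, 1.05, 1.70, and 1.23 in DCD, and 0.411, 0.481, and 0.538 in DVC. Every SS library lay above every CF library, and every CD library lay above every VC library. For all tested genes, the 6 libraries of the earlier and later stage were apart in either direction in 10.8% (SS and CF), 16.4% (CD and VC), and 27.1% (SS and VC). The mean of 6 libraries went from 7.21 ± 3.65 FPKM (SD) at SS to 1.74 ± 0.914 at CF and 1.10 ± 0.333 at CD, and then to 0.479 ± 0.151 FPKM at VC. From SS to CF the average change was −1.56 (SE 0.18) on the log2(FPKM + 1) scale (limma, adjusted p = 2.72e-06). Over SS to VC it was −2.39 (SE 0.18; limma, adjusted p = 1.79e-09), and in both tests the exact two-sided permutation p was 0.005, the smallest it can give. Of the 26895 tested genes, 136 fell further from SS to CF and 133 from SS to VC. The fall from SS to VC was near in both graft types, 2.29 in homografts and 2.49 in heterografts on the log2 scale.

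The later part of this fall was smaller. From CD to VC the average change of Pbr007550.1 was −0.50 (SE 0.18; limma, adjusted p = 0.0350), with an exact permutation p of 0.005. It rested on 5 to 34 reads a library. The call was lost when recovered reads were tested with voom (−1.17 on the log2 scale of reads; limma, adjusted p = 0.0791), and when any of SCD replicate 2, SCD replicate 3, SVC replicate 1, SVC replicate 3, DCD replicate 2, DVC replicate 1, or DVC replicate 2 was left out (limma, adjusted p up to 0.0875). With any of these left out, the value was between −0.52 and −0.44. From CF to CD the change was −0.33 (limma, adjusted p = 0.414).

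**Figure D2:**
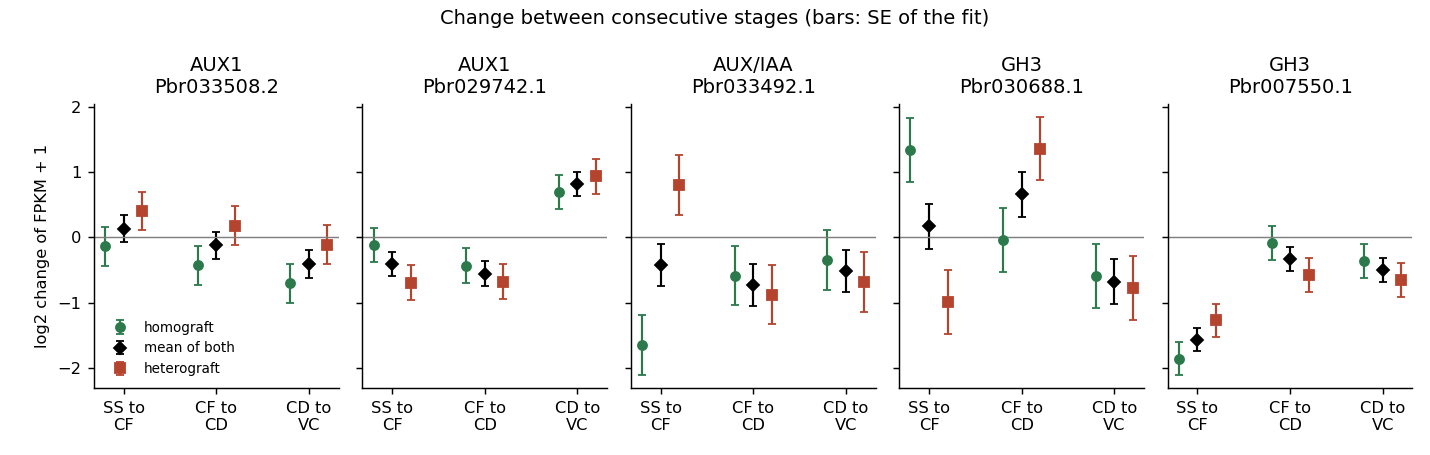
Log2 change of the 5 auxin genes between consecutive stages (y axis, log2(FPKM + 1) scale), within homografts, within heterografts, and averaged over both, with bars for the SE of the fit. GH3 Pbr007550.1 fell most from SS to CF (−1.56 on average), AUX1 Pbr029742.1 rose from CD to VC (0.81), and the graft types lay on opposite sides of 0 from SS to CF for AUX/IAA Pbr033492.1 (−1.65 and 0.81) and GH3 Pbr030688.1 (1.34 and −0.99).

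GH3 Pbr030688.1 had a different course from Pbr007550.1 and no stage change that passed the test with all libraries. Its FPKM was 2.73, 1.62, and 1.48 in SSS, 5.75, 6.52, and 6.78 in SCF, 4.39, 8.69, and 5.91 in SCD, and 2.97, 6.29, and 2.70 in SVC. In heterografts it was 5.85, 3.40, and 8.07 in DSS, 2.21, 2.10, and 2.48 in DCF, 1.43, 15.2, and 13.9 in DCD, and 2.94, 3.62, and 5.49 in DVC. Between SS and CF it moved in opposite directions, with all SCF libraries above all SSS libraries and all DCF libraries below all DSS libraries. The log2 change in this step was 1.34 in homografts and −0.99 in heterografts, and the average was 0.17 (limma, adjusted p = 0.743). The share of all tested genes with libraries apart in this way was not counted, so nothing is read from the separation. Over the 4 stages the F test gave an adjusted p of 0.145 in limma. This value rested on DCD replicate 1, where the gene had 32 reads against 299 and 255 in the other DCD libraries. Without that library the F test gave an adjusted p of 1.48e-04 in limma. The changes were then 1.10 from CF to CD (limma, adjusted p = 0.00853) and −1.12 from CD to VC (limma, adjusted p = 4.00e-04), against 0.66 and −0.68 with it. The average from CF to CD describes neither graft type, since it joined −0.04 in homografts with 2.25 in heterografts without that library (1.36 with it). The residual SD of Pbr030688.1 was 0.65 on the log2 scale, larger than that of 98.0% of the tested genes.

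The balance of the GH3 pair shifted toward Pbr030688.1 between SS and VC. Pbr030688.1 made up 30.6%, 20.6%, and 19.4% of the summed FPKM of the pair in SSS and 55.6%, 18.9%, and 59.8% in DSS. At CF its share was 87.7%, 86.0%, and 85.7% in homografts, and 47.0%, 53.5%, and 44.3% in heterografts. At VC it was between 85.0% and 92.1% in all 6 libraries. Pbr007550.1 was thus the higher gene in SSS, neither gene was higher in all libraries of DSS or DCF, and Pbr030688.1 was higher in every CD and VC library. The log2 ratio of Pbr030688.1 to Pbr007550.1 (pseudocount 1) rose from −0.83 at SS to 1.71 at VC, by 2.55 on average (exact two-sided permutation test, p = 0.005, the smallest it can give). Most of this rise repeats the fall of Pbr007550.1 (−2.39), since Pbr030688.1 changed by 0.15 on average (limma, adjusted p = 0.725). The rise was 3.01 in homografts and 2.08 in heterografts, and without DSS replicate 2 it was 1.35 in heterografts and 2.18 on average (exact permutation test, p = 0.005). From SS to CF it was 1.73 (exact permutation test, p = 0.05), with 3.19 in homografts and 0.27 in heterografts, and from CF to CD it was 0.99 (exact permutation test, p = 0.065), with 0.04 and 1.93. Leaving out DSS replicate 1 or DSS replicate 3 brought the exact permutation p of the step from SS to CF to 0.035 or 0.03. Leaving out DSS replicate 2 brought it to 0.095 and turned the heterograft change to −0.46. The step from CF to CD had an exact permutation p of 0.005 without SCD replicate 1 and 0.035 without DCD replicate 1. It was up to 0.165 with another library left out (DCF replicate 1 or DCF replicate 3). From CD to VC the ratio changed by −0.18 (exact permutation test, p = 0.74), by −0.58 without DCD replicate 1 (exact permutation test, p = 0.035), and by 0.31 with a pseudocount of 0.1 (exact permutation test, p = 0.72), so its direction depended on the setting.

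**Figure D3:**
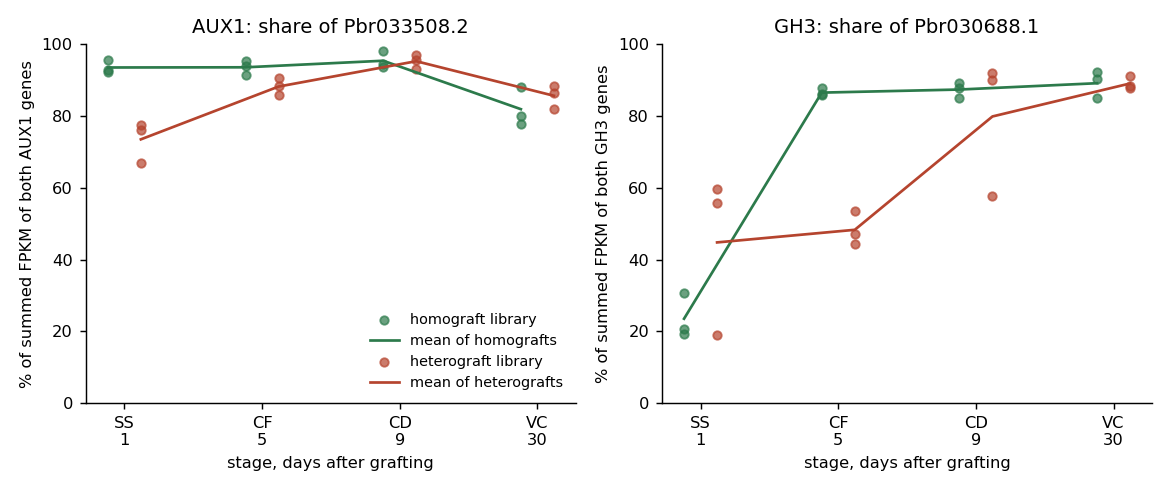
Share (percent, y axis) of the first gene in the summed FPKM of the AUX1 pair (Pbr033508.2) and of the GH3 pair (Pbr030688.1) at the 4 stages (x axis), with a point for each library and lines through the means of each graft type. The AUX1 share was lowest in DSS (66.9% to 77.3%), and the GH3 share was between 19.4% and 30.6% in SSS and between 85.0% and 92.1% at VC.

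Across the 5 genes, 3 changed with stage in the F test (limma, adjusted p = 8.89e-04 for Pbr029742.1, 7.52e-04 for Pbr033492.1, and 1.19e-08 for Pbr007550.1). Of all tested genes 63.4% passed this test, so 3 in 5 is near the share of all genes. From SS to CF 1 of the 5 fell, where 12.4% of all tested genes fell and 19.5% rose. From CF to CD none of the 5 passed limma, with 0.331% of all genes higher and 0.294% lower. Without DCD replicate 1 Pbr030688.1 passed, and so did 1192 of the 26895 tested genes, against 168 with all libraries. With all libraries there were 2 at an unadjusted p under 0.05 in limma, Pbr029742.1 and Pbr033492.1, beside 14.9% of all tested genes. The exact permutation test gave 2 under 0.05 (Pbr029742.1, p = 0.02, and Pbr007550.1, p = 0.025), beside 11.4% of all tested genes. From CD to VC 1 rose and 1 fell (all tested genes, 21.5% and 17.1%). Between SS and VC 2 of 5 fell and none rose, where 18.3% of all tested genes fell and 37.0% rose. The median change of the 5 from SS to VC was −0.39, and that of all tested genes was 0.15. The former is the value of Pbr033508.2, which did not pass the test and joins −1.27 in homografts with 0.48 in heterografts. Upper-quartile scaling lowered this value to −0.51 and the median of all tested genes to 0.05. In homografts the scaling moved the median of all genes from 0.17 to 0.06.

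The differences between graft types are given without a test, since the genes were chosen on them. At SS the AUX1 genes differed in sign, with heterograft minus homograft at −0.97 (SE 0.29) for Pbr033508.2 and 0.91 (SE 0.26) for Pbr029742.1 on the log2(FPKM + 1) scale. For Pbr033508.2 the difference went from −0.97 at SS through −0.43 at CF and 0.18 at CD to 0.77 at VC. Its DSS libraries lay below all SSS libraries, and its DVC libraries lay above all SVC libraries. The later differences of Pbr029742.1 were 0.33 (CF), 0.09 (CD), and 0.33 (VC). AUX/IAA Pbr033492.1 was lower in heterografts at SS (−1.15, SE 0.45) and higher at CF (1.30), CD (1.01), and VC (0.67). The signs of the GH3 gene Pbr030688.1 were opposite to these at the first stages, with 1.16 (SE 0.49) at SS and −1.17 at CF. At CD it was at 0.23, and at 1.13 without DCD replicate 1. Pbr007550.1 was at 0.20 (SE 0.26) at SS, and its direction there depended on DSS replicate 2, which held 306 reads of the gene against 96 and 112 in the other DSS libraries. Without that library the value was −0.26. The later differences were 0.79 (CF), 0.30 (CD), and 0.01 (VC).

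Of the 20 differences, 16 were positive and 4 negative, and 5 were beyond 1 in size. These 5 belonged to Pbr033492.1 at SS, CF, and CD and to Pbr030688.1 at SS and CF. The value just inside was that of Pbr033492.1 at CD (1.01), and the value just outside was that of Pbr033508.2 at SS (−0.97). Among all tested genes, 2.8% were higher and 1.68% lower at SS past an absolute log2 change of 1 and an unadjusted p of 0.05. These shares were 0.948% and 0.565% at CF, 0.357% and 0.171% at CD, and 0.547% and 0.126% at VC. Unlike the count of 5, they also require a p, so the 2 are not on the same footing. The share of positive differences over all tested genes was not counted. Libraries of the 2 graft types did not overlap for 4 of the 5 genes at SS (all tested genes, 30.7%), 3 at CF (22.2%), 2 at CD (9.83%), and 1 at VC (11.9%). Nothing is read from these counts, because the choice of the genes used this contrast.

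**Figure D4:**
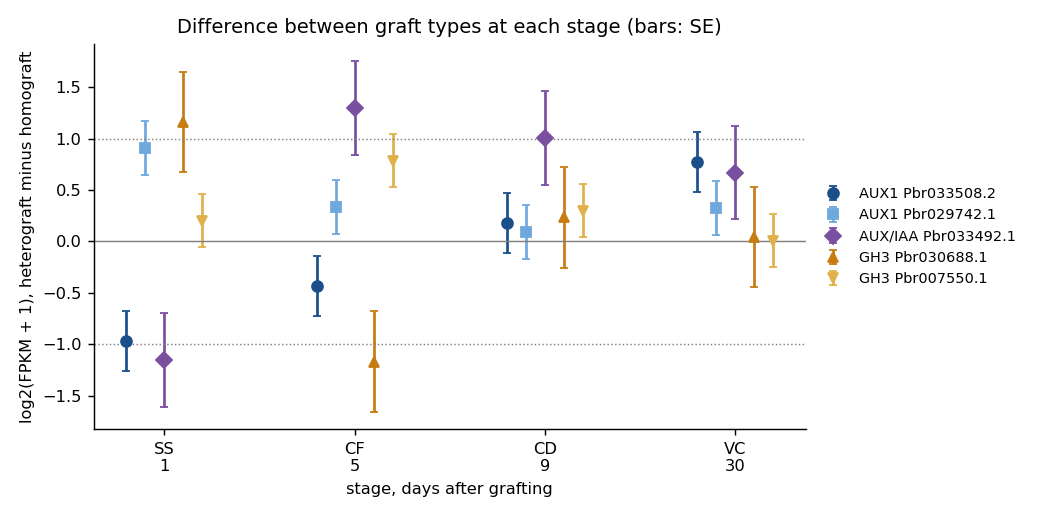
Heterograft minus homograft (y axis, log2(FPKM + 1) scale, with SE) of the 5 auxin genes at the 4 stages (x axis), a description of the contrast on which the genes were chosen, with dotted lines at −1 and 1. AUX/IAA Pbr033492.1 went from −1.15 at SS to 1.30 at CF, and GH3 Pbr030688.1 from 1.16 to −1.17.

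The 12 other hormone genes that the study labelled on the same samples were put through the same test of the average change with stage. SAUR genes are early auxin response genes, many of which promote cell expansion in Arabidopsis. The F test was passed by 3 of the 7 SAUR genes, where 63.4% of all tested genes passed. From SS to VC 3 SAUR genes rose and 1 fell (all tested genes, 37.0% and 18.3%). The fall was that of SAUR Pbr009936.1 (−1.67, SE 0.22; limma, adjusted p = 3.35e-06), with −0.12 in homografts and −3.22 in heterografts, and the exact permutation p was 0.05. The largest rise was that of SAUR Pbr010681.1 (1.02, SE 0.32; limma, adjusted p = 0.0119), with 0.82 in homografts and 1.21 in heterografts. Both SAUR genes rest on few reads, with means of 10.4 (Pbr009936.1, above 0 in 15 of 24 libraries) and 8.42 reads (Pbr010681.1). The lowest mean of the 7 was 1.4 reads. Of the 5 cytokinin signalling genes, 3 passed the F test, and from SS to VC 2 rose and none fell, also at an unadjusted p under 0.05 in limma. The highest change was that of the type-A response regulator Pbr009193.1, of a class that dampens the response (0.91; limma, adjusted p = 9.33e-04), with 1.64 in homografts and 0.18 in heterografts. The lowest was that of the AHP gene Pbr015522.1, of a class that passes the cytokinin signal on by phosphotransfer (−0.52; limma, adjusted p = 0.159), with 0.46 in homografts and −1.51 in heterografts. The median change from SS to VC was 0.40 over the SAUR genes and 0.18 over the cytokinin genes, beside 0.15 over all tested genes. Both lists were chosen by the study on these libraries.

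For each gene, the tested genes with the most similar pattern were those with the highest Pearson correlation of log2(FPKM + 1) over the 24 libraries. These values describe libraries that share stage, graft type, and sequencing, and the files give the IDs no names. For AUX1 Pbr033508.2 these were Pbr011748.1 (r = 0.829) and Pbr041686.1 (r = 0.790). AUX1 Pbr029742.1 was closest to Pbr026597.1 (r = 0.879) and Pbr016260.1 (r = 0.875). For AUX/IAA Pbr033492.1 they were Pbr003636.1 (r = 0.882) and Pbr042444.1 (r = 0.858). For the GH3 genes the values were higher, with Pbr033065.1 (r = 0.951) and Pbr040686.1 (r = 0.927) for Pbr030688.1 and Pbr018097.1 (r = 0.973) and Pbr039980.1 (r = 0.963) for Pbr007550.1. Pbr039980.1 had a mean of 5.52 FPKM in SSS and 17.5 in DSS, and 0.0842 in SVC and 0.0310 in DVC. Without the 2 libraries farthest from the median of the gene in question, r of the closest gene was between 0.801 and 0.963. Spearman's rho of the 10 genes was between 0.769 and 0.920. For Pbr007550.1, Pbr039980.1 ranked 172 by Spearman's rho and 67 by the correlation of condition means. Among the 5 genes, the highest correlation was between AUX/IAA Pbr033492.1 and GH3 Pbr007550.1 (r = 0.671). Among the 26894 other tested genes, Pbr007550.1 ranked only 479 for Pbr033492.1, and Pbr033492.1 ranked 2094 for Pbr007550.1. The correlation was −0.09 for the AUX1 pair and −0.23 for the GH3 pair.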

How the data were processed

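RNA was sequenced from 24 libraries of graft unions, which were grouped by the graft type and day in their titles. The series' own design text gives the heterograft in the opposite order to the titles and the methods, and the titles were used. The values deposited by the authors are FPKM, made with Cutadapt for trimming, HISAT2 against the scaffold genome of Pyrus bretschneideri, and HTSeq for counting. How reads in several places were treated and whether strand was used are not given in the sources used here, so reads of near-identical copies may be split.

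The 26895 genes that reached an FPKM of 1 in 3 or more libraries entered a limma fit (version 3.58.1, R 4.3.3) of log2(FPKM + 1), with limma's trend and 8 condition means. Fold changes on this scale understate the change of low genes. The stage change was averaged over both graft types, and p was adjusted by Benjamini-Hochberg over all tested genes (threshold 0.05). Single genes and ratios were also tested with exact permutation tests within graft type (400 permutations). Whole reads were recovered from FPKM for all 32966 genes that were above 0 in 4 or more libraries (tolerance 0.02 reads), and all implied lengths of genes with a mean of over 100 reads were multiples of 3, as in coding lengths. Voom on these reads was an alternative. Fits were tested on simulated data. No 2 libraries of a condition were identical, and none agreed within sampling noise.

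The named genes were the 5 auxin genes, the genes with the highest and lowest average change from SS to VC among the SAUR and the cytokinin genes, and the 2 genes most like each auxin gene. The genes and lists were chosen with earlier results of these data known. No sequence is printed, since none is in the files used here.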

Additional observations from a re-analysis of the deposited data

Results flagged for a closer look

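AUX/IAA Pbr033492.1 and GH3 Pbr030688.1 moved in opposite directions in the graft types between SS and CF. The log2 change of Pbr033492.1 was 0.81 in heterografts and −1.65 in homografts. That of Pbr030688.1 was −0.99 in heterografts and 1.34 in homografts. In each case all CF libraries lay on one side of the SS libraries in homografts and on the other side in heterografts. The share of all tested genes that did so was not counted, so nothing is read from this separation. The difference between graft types was not tested, because the genes were chosen on it.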

How the results depend on the processing

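The alternatives were a pseudocount of 0.1, no filter, a filter at an FPKM of 5, upper-quartile scaling, no trend, voom on recovered reads, a replicate block, exact permutation tests, and each library left out in turn. No change of the 5 genes or their ratios that passed with all libraries and the main settings reversed under any of them. The change of Pbr007550.1 from CD to VC kept its direction but did not pass with voom or with any of 7 libraries left out. The GH3 ratio from CD to VC, which did not pass with all libraries, took either sign. From SS to VC, AUX1 Pbr033508.2 passed under upper-quartile scaling (−0.51), and it was between −0.52 and −0.30 with a library left out. For GH3 Pbr030688.1 the adjusted p of the F test was between 1.48e-04 and 0.427 with a library left out (limma), and the low end was reached without DCD replicate 1. The number of genes that passed from CF to CD was between 34 (without SCF replicate 1) and 1192 (without DCD replicate 1), against 168 with all libraries. From SS to VC, Pbr007550.1 was between −3.80 and −2.39 and Pbr033492.1 between −2.60 and −1.66 under the other settings, and from CD to VC Pbr029742.1 was between 0.78 and 1.55. The rise of the GH3 ratio from SS to VC was 3.83 with a pseudocount of 0.1 and between 2.18 and 2.76 with a library left out. Of the 20 heterograft differences, 5 grew by more than the SD between libraries of their conditions, both with a pseudocount of 0.1 and with voom. With a library left out, 6 of them took either sign: Pbr007550.1 (−0.26 to 0.47 at SS, −0.12 to 0.11 at VC), Pbr030688.1 (−0.24 to 1.13 at CD, −0.16 to 0.35 at VC), Pbr029742.1 (−0.12 to 0.34 at CD), and Pbr033508.2 (−0.12 to 0.43 at CD). The filter at an FPKM of 5 kept 20009 genes and gives no value for Pbr029742.1. Replicate numbers were no pairing in the labels, and the deviations of same-numbered libraries from their condition means correlated at −0.231 to 0.211. With the replicate block, 16860 genes passed the F test, 159 passed from CF to CD, and no call of the 5 auxin genes changed (limma, adjusted p = 0.0319 for Pbr007550.1 from CD to VC), while 11 of 24 libraries correlated best with a library of their own number. At CD these were all 6 libraries, with correlations of 0.133 to 0.178 between SCD and DCD. Low depth limits Pbr029742.1, Pbr033492.1, and Pbr007550.1, whose medians were 26.5, 24.5, and 24.5 reads. It also limits SAUR Pbr009936.1 and Pbr010681.1, whose means were 10.4 and 8.42 reads.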
